A study of Mus musculus with 12 samples.

Results

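Pull-down and input libraries labelled Cre- were compared gene by gene, as the 3 pull-down and 3 input libraries that carry this label among the 12 libraries of the series. All 12 libraries came from RiboTag mice with the genotype Rpl22HA/HA, and the Cre- animals were male littermates without the Runx3-Cre driver. Neurons of all dorsal root ganglia (DRG) were purified on a Percoll cushion and kept for 24 h in serum-supplemented F12 medium, and the neurons of 5 mice were pooled for each sample. The sample labels give an age of 3 to 6 months. A pull-down is the RNA recovered with an antibody to the HA tag, and an input is the RNA of 10% of the lysate taken before that step. The libraries labelled Cre+, used here only for comparison, were Rpl22HA/HA Runx3-Cre+ and otherwise prepared alike, with 3 pull-downs and 3 inputs. Of the 14177 genes in the table of the Cre- libraries, the 11526 with an average FPKM above 1 (fragments per kilobase scaled to sequencing depth, averaged over the 6 libraries by the authors) were tested. The genes were then described by functional classes and by marker lists.

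In RiboTag mice the ribosomal protein gene Rpl22 carries an additional, HA-tagged copy of its final exon, which is used only after Cre recombinase has removed the original exon. An HA pull-down therefore recovers messages bound to ribosomes of cells in which Cre has acted, and Runx3-Cre acts in proprioceptors, the large DRG neurons that report muscle stretch and tension. By design, animals without Cre carry the tag in its silent form. Proprioceptors share the ganglion with low-threshold mechanoreceptors for touch, with peptidergic nociceptors that release neuropeptides, and with nonpeptidergic nociceptors and pruriceptors for pain and itch. Each of these subtypes is known by its own set of receptors, channels and transcription factors.

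Directions below follow the deposited labels. Apart from punctuation, the table read as Cre+ has pull-down columns named like the titles of the samples labelled Cre-. On the other side, the descriptions of the samples assign the columns as read here, and the columns read as Cre- are named wt. The libraries are therefore called by their labels throughout. Runx3 and other proprioceptor genes were enriched in the libraries labelled Cre-. Whether the tables or labels were exchanged could not be settled from the labels and tables themselves, and an exchange would put Cre+ for Cre- in every value below and turn the sign of every difference between them. Total counts on listed genes were 9403767 to 12181960 in the inputs and 14861795 to 18633365 in the pull-downs. Pull-down replicate 1 stood apart from its group: 156 of the 11526 genes were over 4-fold above both other pull-downs in it (2 counts added), against 12 and 10 genes for pull-down replicates 2 and 3 and 6 to 31 genes for the inputs. In the other direction, 40 genes were over 4-fold below both other pull-downs in it, against 25 and 67 for pull-down replicates 2 and 3, and input replicate 1 had 90 such genes against 28 and 24 in the other inputs. The classes whose counts of calls moved most without pull-down replicate 1 are given with and without it. Each sample is a pool of animals, and the labels do not say whether the pools were cultured separately, so p-values measure the spread between these samples.

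Levels below are counts per 1000000 on the tested genes, scaled by edgeR's trimmed mean of M-values (TMM), and are called normalized counts. Enriched and depleted mean an edgeR quasi-likelihood test of the 3 pull-downs against the 3 inputs with an adjusted p (Benjamini-Hochberg) under 0.1 and at least a 2-fold change. In all, 693 genes (6.01% of those tested) were enriched and 672 (5.83%) were depleted. In 2093 genes (18.2%) every pull-down was above every input, and in 2144 (18.6%) every pull-down was below every input. The median log2 fold change of all genes was -0.04, and 5478 genes (47.5%) had a positive value. With libraries scaled by size alone, the median of all genes was -0.27 instead of -0.04 and 25.7% of the called genes were enriched instead of 50.8%, so every level is relative to the bulk of genes and class medians near 0 change sign with the scaling. A class is described by its counts and its median beside these values, which are its background, and no test was run on a class.

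Runx3, the transcription factor that gives the Cre driver its name, was at 4.70, 1.90 and 2.88 normalized counts in the inputs and at 20.8, 36.0 and 51.4 in the pull-downs. All 3 pull-downs were above all 3 inputs, with a log2 fold change of 3.52 (SE 0.43; edgeR adjusted p = 0.000236). It passed the FPKM limit largely through its pull-downs and was also called without a filter. Rpl22, the gene that carries the tag, was at 60.3, 52.7 and 47.9 in the inputs and at 26.3, 18.0 and 17.6 in the pull-downs. Its log2 fold change was -1.38 (SE 0.24; edgeR adjusted p = 0.00229). The gene for which these pull-downs had the smallest adjusted p, Unc80, is described with the ion channels below.

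Most tested proprioceptor genes were enriched in the pull-downs, and most peptidergic nociceptor genes were depleted. Of 13 proprioceptor genes tested, 9 were enriched and none was depleted, and their median log2 fold change was 2.57. Pvalb, a calcium-binding protein, lies on chr15:78191112-78206400 (mm10) and was at 8.13, 7.35 and 7.66 in the inputs and at 58.7, 59.0 and 65.4 in the pull-downs. The groups were far apart, with a log2 fold change of 2.98 (SE 0.23; edgeR adjusted p = 2.33e-05). Etv1, a transcription factor of proprioceptors (chr12:38780082-38870483), was at 102, 63.2 and 54.4 in the inputs and at 370.1, 573 and 468 in the pull-downs, a log2 fold change of 2.69 (SE 0.25; edgeR adjusted p = 5.93e-05). Spp1, the secreted phosphoprotein osteopontin, had the highest average FPKM of the list at 202. It was at 114, 59.4 and 74.8 in the inputs and at 514, 439.7 and 629.6 in the pull-downs, so the lowest pull-down was over 3 times the highest input. Its log2 fold change was 2.68 (SE 0.24; edgeR adjusted p = 4.72e-05), and 18.8% of its exon bases overlap the predicted gene Gm42793.

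The neurotrophin-3 receptor gene Ntrk3 was at 61.5, 90.9 and 69.3 in the inputs and at 269, 337 and 316 in the pull-downs, a log2 fold change of 2.05 (SE 0.19). The nuclear receptor gene Esrrg was at 34.6, 24.4 and 23.1 in the inputs and at 149, 174 and 165 in the pull-downs, a log2 fold change of 2.57 (SE 0.21). Neither overlapped between the groups, and both passed the test (edgeR adjusted p = 4.71e-05 and 2.68e-05). Whrn, a scaffold protein, was enriched with a log2 fold change of 3.35 (SE 0.49; edgeR adjusted p = 0.000715), and Vstm2b with 2.71 (SE 0.80; edgeR adjusted p = 0.0368) from fewer than 1 normalized count in each input. Vstm2b thus passed the FPKM limit through its pull-downs, and it lost the call without input replicate 1 or pull-down replicate 2. Cdh13, at 6.66, 4.62 and 6.06 in the inputs and 12.6, 19.0 and 6.63 in the pull-downs, was called with overlapping groups (log2 fold change 1.14; edgeR adjusted p = 0.084), and its call was lost in 7 of 13 alternative analyses. The remaining 4 members of the list, Heg1, Calb1, Calb2 and Pou4f3, did not pass the test, and Calb1 had a log2 fold change of -0.96 (edgeR adjusted p = 0.155).

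**Figure D1:**
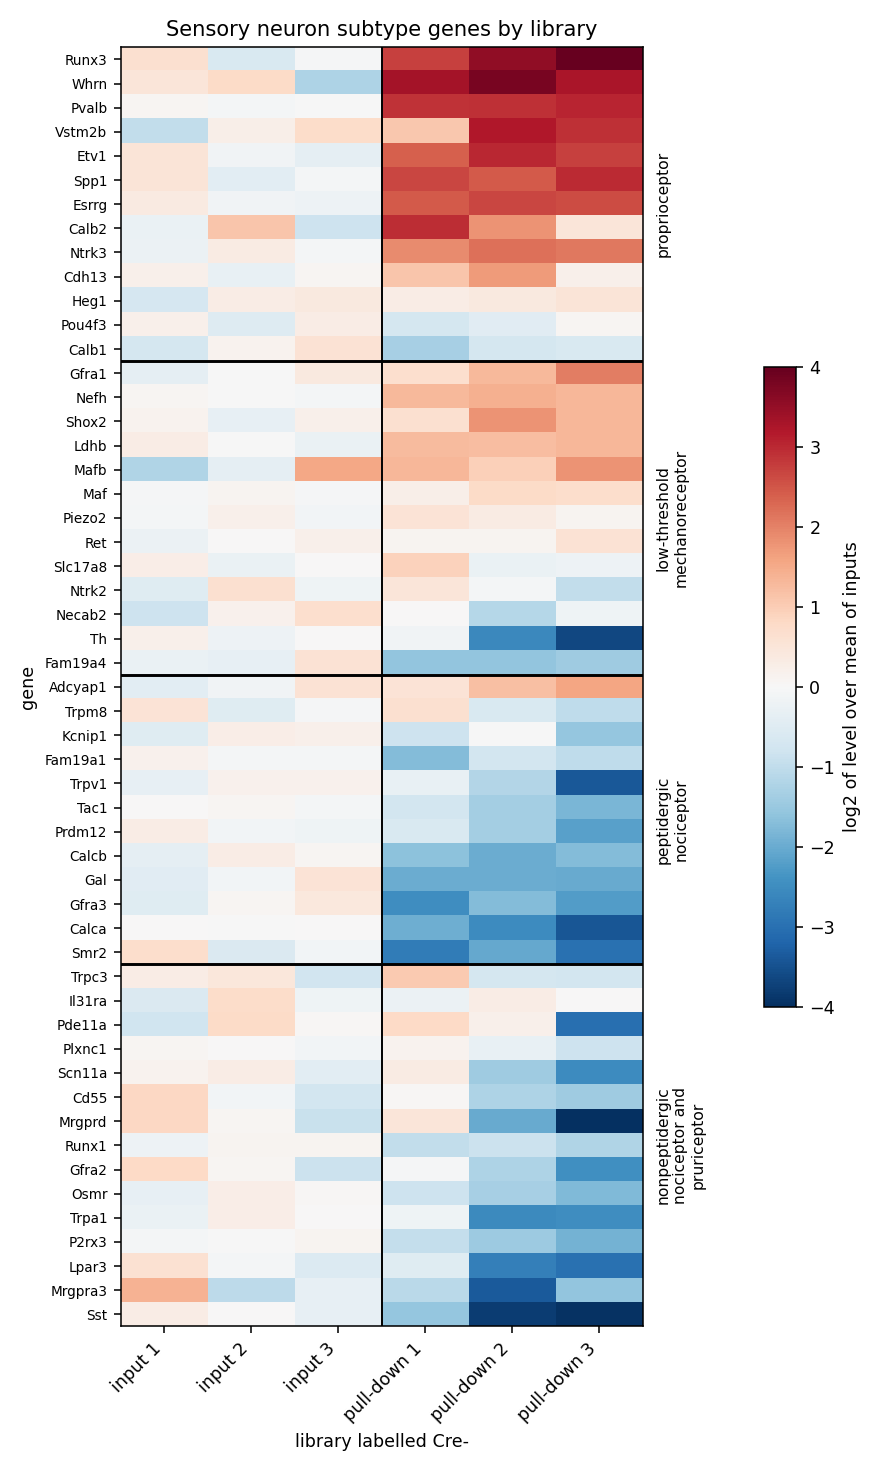
Level of the subtype genes reported here in the 6 libraries labelled Cre-, as log2 of the normalized count (2 counts added) over the mean of the 3 inputs. Rows are genes ordered by log2 fold change within the 4 subtype lists, and columns are libraries; the proprioceptor block is mostly red in all 3 pull-downs, while the nociceptor blocks are mostly blue in pull-down replicates 2 and 3, paler in pull-down replicate 1 for most nonpeptidergic genes, and red for Adcyap1.

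Low-threshold mechanoreceptor genes were mixed. Of 13 tested, 4 were enriched and 1 was depleted, with a median log2 fold change of 0.33. Nefh, the heavy neurofilament of large myelinated neurons, was at 1307, 1241 and 1192 in the inputs and at 3082, 3341 and 3127 in the pull-downs. The pull-downs were all more than 2 times the highest input, with a log2 fold change of 1.35 (SE 0.13; edgeR adjusted p = 5.2e-05). Ldhb, a subunit of lactate dehydrogenase, was at 159, 129.9 and 108 in the inputs and at 311, 308 and 331 in the pull-downs, a log2 fold change of 1.26 (SE 0.17; edgeR adjusted p = 0.000476). The GDNF co-receptor gene Gfra1 and the homeobox gene Shox2 were called with larger errors (log2 fold change 1.41, SE 0.33, and 1.35, SE 0.47; edgeR adjusted p = 0.0185 and 0.0698), and Shox2 lost the call in 7 alternative analyses. Fam19a4, a secreted protein of C-fiber mechanoreceptors, fell by 1.62 on the log2 scale (SE 0.38; edgeR adjusted p = 0.0114). The mechanically gated channel gene Piezo2 and the receptor tyrosine kinase gene Ret had log2 fold changes of 0.33 and 0.27 and did not pass the test (edgeR adjusted p = 0.179 and 0.311). Th, the tyrosine hydroxylase of another C-fiber type, was at 45.5, 34.1 and 40.02 in the inputs and at 35.7, 6.50 and 3.05 in the pull-downs, so that pull-down replicate 1 was within the range of the inputs and the others were far below it.

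Of 13 peptidergic nociceptor genes, 9 were depleted and 1 was enriched, with a median log2 fold change of -1.25. Calca, which encodes the neuropeptide CGRP (chr7:114625981-114636910), was at 792, 780.1 and 799.8 in the inputs and at 205, 139.6 and 73.5 in the pull-downs. Its inputs were nearly equal and all pull-downs were far below them, with a log2 fold change of -2.50 (SE 0.31; edgeR adjusted p = 0.000855). The related peptide gene Calcb was at 79.2, 126 and 107 in the inputs and at 32.5, 25.7 and 30.3 in the pull-downs, a log2 fold change of -1.82 (SE 0.22; edgeR adjusted p = 0.000206). The artemin co-receptor gene Gfra3 fell by 2.18 on the log2 scale, the neuropeptide gene Gal by 2.09 and Tac1, the precursor of substance P, by 1.23, and no pull-down of these 3 genes reached an input. Adcyap1, the neuropeptide PACAP, was the exception. It was at 248, 303 and 502 in the inputs and at 491, 776 and 1009.5 in the pull-downs, was called enriched with overlapping groups (log2 fold change 1.11, SE 0.31; edgeR adjusted p = 0.0397) and lost the call in 4 alternative analyses. Trpv1, the capsaicin receptor, and the cold receptor gene Trpm8 were at 10 normalized counts or fewer in every library and did not pass the test.

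Of 15 nonpeptidergic nociceptor and pruriceptor genes, 4 were depleted and none was enriched, with a median log2 fold change of -1.01. P2rx3, an ATP-gated channel and the highest of the list by average FPKM, was at 719, 755 and 821 in the inputs and at 392, 277 and 208 in the pull-downs. All pull-downs were well below the inputs, with a log2 fold change of -1.39 (SE 0.21; edgeR adjusted p = 0.000868). The transcription factor gene Runx1 was at 215, 265 and 265 in the inputs and at 125, 137 and 107 in the pull-downs, a log2 fold change of -1.01 at the edge of the 2-fold limit (SE 0.17; edgeR adjusted p = 0.0017) that fell short of it in 4 alternative analyses. Osmr, a cytokine receptor, and Sst, the peptide somatostatin, were also depleted (log2 fold change -1.27 and -2.73). In this list pull-down replicate 1 differed most from the others. Mrgprd, an itch and pain receptor, was at 46.0, 8.06 and 1.12 in the pull-downs and at 58.6, 34.7 and 17.7 in the inputs, and the sodium channel gene Scn11a was at 264, 79.3 and 37.1 and at 231, 260.1 and 158 in the same order. The irritant receptor gene Trpa1 was at 27.1, 5.15 and 5.36 in the pull-downs and at 25.6, 37.1 and 30.9 in the inputs. In these 3 genes pull-down replicate 1 was at the level of the inputs, and both other pull-downs were below every input. Without pull-down replicate 1, 11 of the 15 genes were depleted and the median was -1.64. The peptidergic list kept 9 depleted genes in number, with a median of -1.88, and the proprioceptor list 9 enriched genes, with a median of 2.65. In bulk pull-downs of this kind, RNA recovered from fewer cells of a type and less RNA recovered per cell cannot be told apart.

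Genes shared by all sensory neurons were called at shares not far from those of all genes, with 7.69% enriched and 0% depleted against 6.01% and 5.83%. Of 13 tested, only Snap25, a protein of the vesicle fusion machinery, was enriched, a call lost when libraries were scaled by size alone, and none was depleted, and the median was -0.14. Avil, Prph, Pou4f1 and Uchl1 had log2 fold changes of -0.09, -0.23, -0.14 and 0.14, and their groups overlapped. Pirt, a regulator of TRP channels, was at 1061, 1008 and 952 in the inputs and at 526, 583 and 475 in the pull-downs, and its log2 fold change of -0.93 (SE 0.14; edgeR adjusted p = 0.000949) was just short of the 2-fold limit. Slc17a6, the vesicular glutamate transporter, and Rbfox3, the antigen of the NeuN antibody, were lower in every pull-down as well, with log2 fold changes of -0.75 and -0.76.

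**Figure D2:**
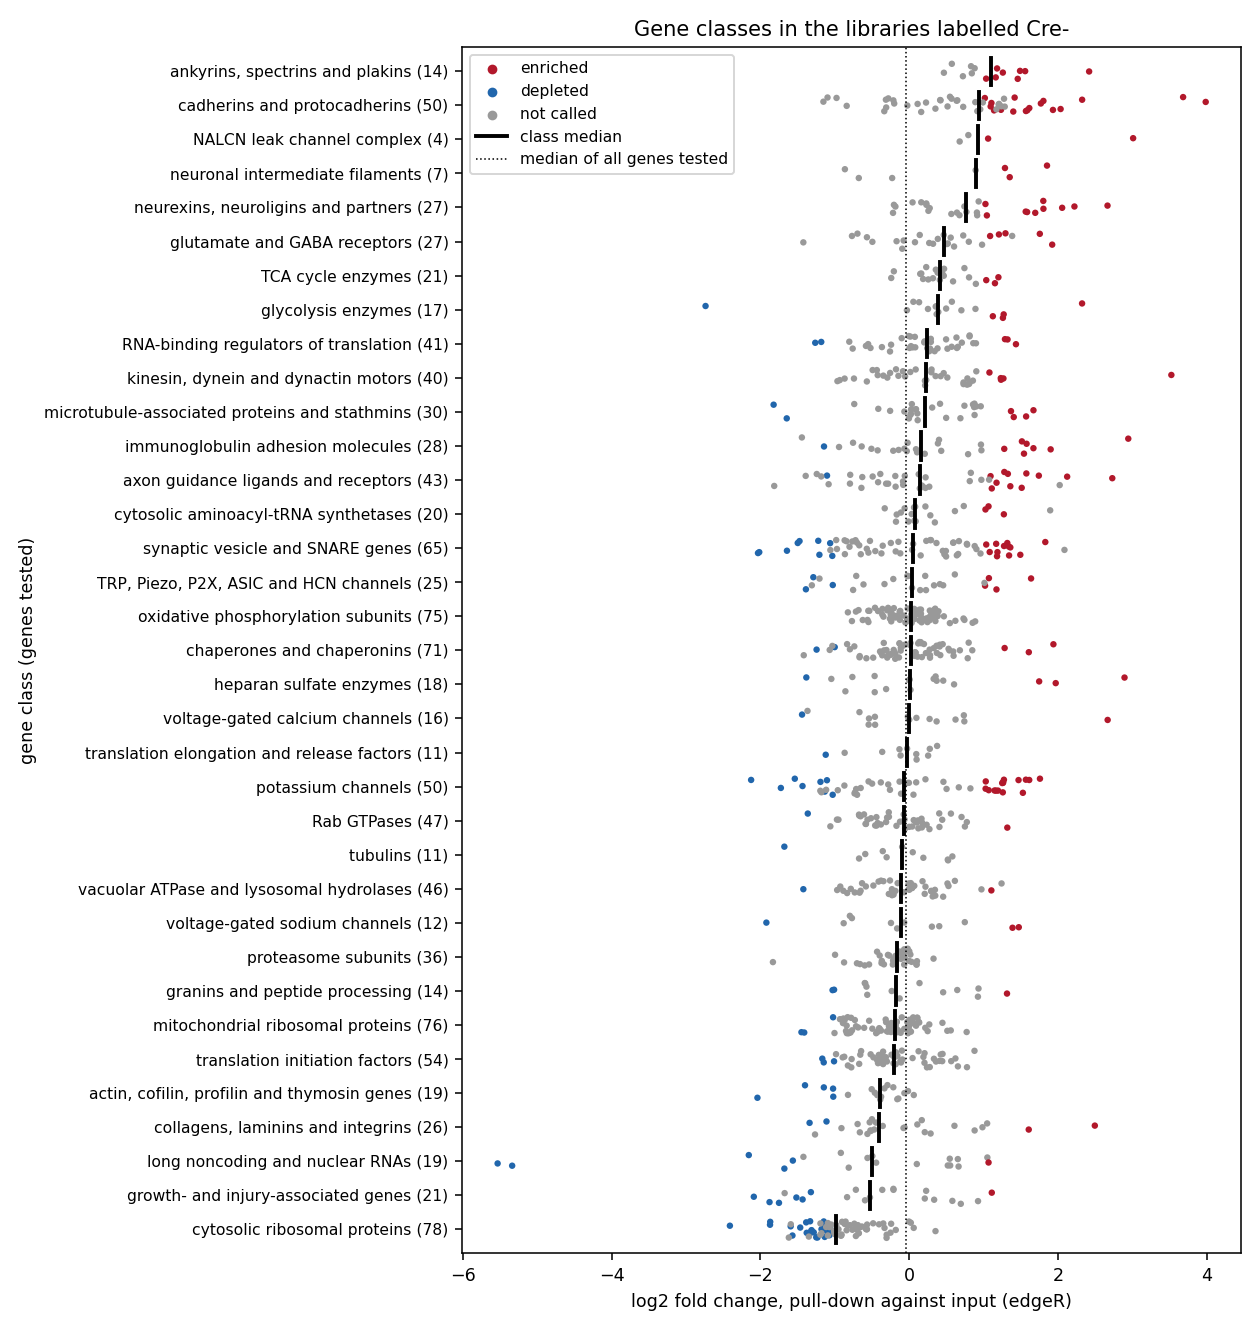
Log2 fold change of pull-down against input for every tested member of each functional class, with a point per gene colored by its call, a black bar at the class median and a dotted line at the median of all genes tested. Classes are ordered by their median, which ran from -0.98 for cytosolic ribosomal proteins to 1.10 for ankyrins, spectrins and plakins. Vertical scatter within a class has no meaning, and the lowest points of the long noncoding class rest on few counts in the pull-downs.

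Potassium channels, which set resting potential and spike shape, split in both directions. Of 50 tested, 16 were enriched and 8 were depleted, against 6.01% and 5.83% of all genes, and the median was -0.07, with a sign that turned with the library left out. Among the enriched members were the Kv1 genes Kcna1 and Kcna2, the Kv2 gene Kcnb2, the Kv3 genes Kcnc1 and Kcnc4, the ether-a-go-go genes Kcnh1, Kcnh2, Kcnh5 and Kcnh7, and Kcnma1, Kcns1, Kcnj3, Kcnk1 and Kcnip2. Kcnh2 was at 34.4, 37.9 and 40.2 in the inputs and at 97.9, 124 and 123.3 in the pull-downs, a log2 fold change of 1.61 (SE 0.19; edgeR adjusted p = 0.000159). Kcnk1 and Kcnh1 followed with log2 fold changes of 1.57 (SE 0.24) and 1.27 (SE 0.19; edgeR adjusted p = 0.000872 for each). Among the depleted members were Kcnip4, Kcnmb1, Kcnc2, Kcns3, Kcnv1, Kcnk13 and Kcnt2. Kcnip4, an accessory subunit of Kv4 channels, was at 396, 351 and 282 in the inputs and at 119, 127 and 108 in the pull-downs, all below the inputs (log2 fold change -1.54, SE 0.17; edgeR adjusted p = 0.000125). Kcnip3, with the highest average FPKM of the class at 165, had a log2 fold change of -0.96 (SE 0.17; edgeR adjusted p = 0.00287), short of the fold limit.

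Among 12 voltage-gated sodium channel genes, Scn8a and Scn1a were enriched. Scn8a, the channel of nodes of Ranvier, was at 336, 351 and 274 in the inputs and at 869, 947 and 855 in the pull-downs, and Scn1a at 88.6, 83.4 and 83.5 and 188, 274 and 208. Both were above every input in every pull-down, with log2 fold changes of 1.47 (SE 0.15) and 1.39 (SE 0.18; edgeR adjusted p = 7.41e-05 and 0.000319). The accessory subunit gene Scn2b was at 56.8, 117 and 89.0 in the inputs and at 17.4, 37.2 and 14.9 in the pull-downs and was depleted (log2 fold change -1.92, SE 0.38; edgeR adjusted p = 0.00726). Scn7a, the highest of the class by average FPKM, had a log2 fold change of -0.07, and Scn9a, the channel of pain-sensing neurons, of -0.24, with overlapping groups. Of 16 genes with symbols of calcium channel subunits, Cacng5 was enriched (log2 fold change 2.67, SE 0.36) and Cacna1e was depleted (-1.44, SE 0.31). Cacng5 was grouped by its symbol and is better known as an auxiliary subunit of AMPA receptors.

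Among 25 TRP, Piezo, P2X, ASIC and HCN channel genes, 4 were enriched and 3 were depleted. Asic1, an acid-sensing channel, was at 45.6, 28.6 and 25.2 in the inputs and at 61.3, 132 and 116 in the pull-downs, a log2 fold change of 1.64 (SE 0.31; edgeR adjusted p = 0.00429). Hcn2, a pacemaker channel, and P2rx6 were enriched near the fold limit, with 1.17 and 1.07, and lost the call when libraries were scaled by size alone. P2rx6 also lost it without input replicate 2, input replicate 3 or pull-down replicate 2. Trpm2 was called too, and P2rx4 and Hcn3 were depleted beside P2rx3, with -1.29 and -1.03, and Hcn3 lost the call in 3 alternative analyses. Of the NALCN sodium leak channel complex, Unc80 (chr1:66467915-66699150), its large scaffold subunit, was at 94.5, 130.1 and 114 in the inputs and at 806, 1023 and 905 in the pull-downs. Its lowest pull-down was over 6 times the highest input, with a log2 fold change of 3.01 (SE 0.18; edgeR adjusted p = 6.08e-06). The pore gene Nalcn was at 30.8, 33.4 and 27.8 in the inputs and at 50.3, 56.0 and 40.9 in the pull-downs, a log2 fold change of 0.68 (SE 0.22; edgeR adjusted p = 0.0493) short of the fold limit. Fam155a had 1.06 (edgeR adjusted p = 0.0194), a call lost in 3 alternative analyses, and Unc79 had 0.80 (edgeR adjusted p = 0.195). In all 4 subunits every pull-down was above every input.

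Of 27 glutamate and GABA receptor genes, 5 were enriched and none was depleted, with a median log2 fold change of 0.47. The AMPA receptor gene Gria3 was at 12.3, 14.1 and 13.7 in the inputs and at 29.8, 38.5 and 30.4 in the pull-downs (log2 fold change 1.30, SE 0.25; edgeR adjusted p = 0.00452). Gabrg1 and Gabrb2, subunits of GABA-A receptors, had 1.92 and 1.21, and Grik2 and Grm8 were the other called members. Gabbr1, the highest by average FPKM, had -0.09 with overlapping groups.

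Most adhesion classes held a larger share of enriched genes than the 6.01% of all genes. Of 92 listed cadherins and protocadherins 50 passed the FPKM limit, and of these 17 were enriched and none was depleted, with a median log2 fold change of 0.94. A gene of low level that passed the limit through its pull-downs had to be higher in them, and without a filter 17 of all 92 were enriched and the median was 0.55. Cdh12, a classical cadherin, was at 4.70, 5.28 and 3.41 in the inputs and at 48.5, 86.8 and 77.1 in the pull-downs, a log2 fold change of 3.99 (SE 0.31; edgeR adjusted p = 2.33e-05). The protocadherin gene Pcdh8 was at 1.37, 2.72 and 2.96 in the inputs and at 22.3, 36.2 and 33.2 in the pull-downs (3.68, SE 0.38), and Clstn2, a calsyntenin of synapses, at 45.1, 42.1 and 38.7 and at 142, 166 and 174 (1.93, SE 0.18). In all 3 every pull-down was several times higher than any input. The other called members were Clstn1, Clstn3, Celsr2, Fat3, Fat4, Cdh8, Cdh13, Pcdh7, Pcdh10, Pcdh19 and the clustered Pcdhb15, Pcdhb16, Pcdhb19 and Pcdhb20, which share sequence, so that unique mapping may drop reads of some of them. Pcdh1, the highest by average FPKM, had -0.31 and did not pass the test.

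Of 27 neurexins, neuroligins and their partners, 10 were enriched and none was depleted, with a median log2 fold change of 0.77. Slitrk1, a synaptic adhesion protein, was at 14.8, 22.5 and 17.4 in the inputs and at 79.3, 133 and 136 in the pull-downs (2.67, SE 0.26; edgeR adjusted p = 5.5e-05). Slitrk3 and the latrophilin gene Lphn2 had 1.57 and 2.22, and the teneurin genes Tenm1, Tenm2 and Tenm4 were called as well, with Cntnap2, Cntnap5b, Nlgn1 and Slitrk4. Among 28 immunoglobulin adhesion genes, 7 were enriched and 1, Cadm4, was depleted. Nfasc, the neurofascin of nodes and initial segments, was at 273, 315 and 306 in the inputs and at 846, 1080.5 and 922 in the pull-downs (1.67, SE 0.15; edgeR adjusted p = 4.65e-05). Mdga1 and Mcam had 2.95 (SE 0.25) and 1.54 (SE 0.16), while Thy1, the highest by average FPKM at 570.1, had -0.03 with overlapping groups.

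Of 43 axon guidance genes, 11 were enriched and Sema3c was depleted. Slit2, a repellent ligand of Robo receptors, was at 12.8, 15.4 and 12.7 in the inputs and at 87.1, 106 and 77.9 in the pull-downs (2.73, SE 0.22; edgeR adjusted p = 2.68e-05), and its receptor gene Robo1 was enriched too. The netrin receptor gene Unc5c and the semaphorin gene Sema7a had 2.12 and 1.36. Heparan sulfate enzymes, which shape the sugar chains that guidance ligands bind, had 3 enriched and 1 depleted of 18. Ndst4, a sulfotransferase, was at 18.8, 18.8 and 15.01 in the inputs and at 116, 141 and 134 in the pull-downs (2.90, SE 0.20; edgeR adjusted p = 1.98e-05). The sulfatases differed in sign, with 1.75 for Sulf2 and -1.38 for Sulf1. Collagens, laminins and integrins had 2 enriched and 2 depleted of 26. Itga6, a laminin receptor subunit, was at 23.0, 22.5 and 21.3 in the inputs and at 72.2, 60.6 and 71.0 in the pull-downs (1.61, SE 0.20), and Itgb1, the highest by average FPKM, had 0.11. Without pull-down replicate 1, 4 of these 26 were enriched and 11 depleted.

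Most genes on the list of ankyrins, spectrins and plakins were enriched in the pull-downs. By its symbols this list also takes in neuron navigator (Nav) genes, which belong to none of these families. All 14 genes of the list had positive log2 fold changes, 8 were enriched, and the median was 1.10. Sptan1, the alpha chain of brain spectrin, was at 435, 679.8 and 649 in the inputs and at 1769.9, 1597 and 1836 in the pull-downs (1.56, SE 0.18; edgeR adjusted p = 0.000149). Sptb, a beta spectrin, had 2.42 (SE 0.26), Macf1, a cross-linker of actin and microtubules, 1.49 (SE 0.19), and Ank2, the most abundant by average FPKM, 1.18 (SE 0.21), a call lost with scaling by library size alone and without pull-down replicate 2. The list of 7 neuronal intermediate filament genes also holds Nes and Vim, which are not restricted to neurons. Nefh, Nefm and Ina were enriched, and 4 members had positive and 3 negative log2 fold changes. Nefm was at 7995, 6544 and 6585 in the inputs and at 14739, 18564 and 18302 in the pull-downs (1.29, SE 0.15; edgeR adjusted p = 0.000142). Nefl, at 9445, 8286 and 8057 and 13738, 16546 and 17663, was also above every input in every pull-down, with 0.89 (SE 0.14; edgeR adjusted p = 0.00114), and shares 32.8% of its annotated exon bases with Nefm.

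Map1b, a microtubule-associated protein with an average FPKM of 3049, was at 16659, 21233 and 20864 in the inputs and at 39270.4, 87061 and 60856 in the pull-downs. The pull-downs varied more than the inputs but all exceeded them (1.67, SE 0.25; edgeR adjusted p = 0.00209). Map1a and Map2 had 1.37 (SE 0.15) and 1.57 (SE 0.21), while Stmn1, which destabilizes microtubules, fell by 1.82 on the log2 scale (SE 0.38; edgeR adjusted p = 0.00629). Of 40 motor genes, 5 were enriched, among them the kinesins Kif1b (1.24) and Kif21b (3.53) and the dynein heavy chain Dync1h1 (1.23), whereas the light chain gene Dynlrb1, the highest of the class by average FPKM, had -0.74. Of 19 actin, cofilin, profilin and thymosin genes, 5 were depleted and none was enriched. Tmsb10, an actin-sequestering thymosin, was at 91.9, 80.9 and 94.7 in the inputs and at 20.8, 21.5 and 22.9 in the pull-downs (-2.04, SE 0.19; edgeR adjusted p = 5.2e-05), and Tmsb4x had -1.40 (SE 0.16). Of 11 tubulin genes only Tubb2b was called, and it was depleted (-1.68, SE 0.19), while Tuba1a, the most abundant, had -0.09.

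Growth- and injury-associated genes, which neurons induce when they are cut or cultured, had 6 depleted and 1 enriched of 21, with a median of -0.53. Gap43, a membrane protein of growth cones, was at 545, 584 and 747 in the inputs and at 143, 208 and 207 in the pull-downs. The highest pull-down was far below the lowest input, with a log2 fold change of -1.75 (SE 0.19; edgeR adjusted p = 0.000111). The related growth cone genes Basp1 and Marcks had -1.52 (SE 0.20) and -1.32 (SE 0.19; edgeR adjusted p = 0.000336 and 0.000561). Marcksl1, Nts and Gal were depleted too, and Adcyap1 was the enriched member. Sprr1a, the most abundant by average FPKM, was at 601, 402 and 672 in the inputs and at 324, 266 and 521 in the pull-downs and did not pass the test (edgeR adjusted p = 0.15).

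Synaptic vesicle and SNARE genes were called in both directions, with 12 enriched and 9 depleted of 65. Snap25 was at 8392, 6241 and 6245 in the inputs and at 15514, 16345 and 15129 in the pull-downs (1.17, SE 0.15; edgeR adjusted p = 0.000275). The synaptobrevins differed in sign. Vamp1 was at 429, 384 and 325 in the inputs and at 788, 1177 and 956 in the pull-downs (1.36, SE 0.18; edgeR adjusted p = 0.000342), and Vamp2 at 1247, 1226 and 1299 and 509.7, 604 and 521 (-1.21, SE 0.14; edgeR adjusted p = 0.000157). The syntaxins and synaptotagmins were divided as well, with Syt2 among the enriched members and Stx1a, Syt5, Syt6 and Syt9 among the depleted. Syt6 was at 199, 211 and 219.9 in the inputs and at 82.3, 76.4 and 68.3 in the pull-downs (-1.47, SE 0.16). Of 47 Rab genes, the vesicle GTPase gene Rab3c was enriched (1.32) and Rab12 was depleted, with a median of -0.07. Every pull-down was above every input in 5 Rab genes and below every input in 13. Rab12 lost the call without input replicate 1 or pull-down replicate 2. Of 14 granins and peptide-processing genes, the granin gene Chgb was enriched, at 338, 305 and 294 in the inputs and at 795, 772 and 766 in the pull-downs (1.32, SE 0.14; edgeR adjusted p = 9.61e-05), while Pam, which amidates peptides, and Cadps2, a protein of vesicle priming, were depleted near the fold limit (-1.03 and -1.01) and lost the call in 3 and 6 alternative analyses.

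In energy metabolism, enzymes of glycolysis and of the tricarboxylic acid (TCA) cycle had positive medians and the respiratory chain a median near that of all genes. Of 17 glycolysis genes, 4 were enriched and 1 was depleted, with a median of 0.39, and in 12 every pull-down was above every input. Aldoc, an aldolase, was at 71.3, 60.6 and 44.7 in the inputs and at 238, 355 and 291 in the pull-downs (2.33, SE 0.22; edgeR adjusted p = 4.72e-05). The neuronal enolase gene Eno2 was at 364, 398 and 458 and 936, 1062 and 946 (1.27, SE 0.15), and Pkm, the pyruvate kinase, at 347, 367 and 335 and 719, 766 and 804 (1.13, SE 0.14; edgeR adjusted p = 0.000167 and 0.000237). The depleted member, the muscle enolase gene Eno3, was at 6 normalized counts or fewer in every library. Of 21 TCA cycle genes, 3 were enriched and none was depleted, with a median of 0.41 and 14 members above every input in every pull-down. Mdh1, the cytosolic malate dehydrogenase, was at 203, 158 and 184 in the inputs and at 421, 434 and 398 in the pull-downs (1.2, SE 0.15; edgeR adjusted p = 0.000292), and Ogdh had 1.04. Pkm, Mdh1 and Ogdh lost their calls when libraries were scaled by size alone, and Ogdh also without input replicate 3 or pull-down replicate 1. None of 75 oxidative phosphorylation genes was called by edgeR or DESeq2 (7 higher and 5 lower at an unadjusted p under 0.05), the median was 0.03, and 10 were above and 10 below every input in every pull-down. Atp5b, a subunit of the ATP synthase and the most abundant, was at 2314, 1677 and 1576 in the inputs and at 2292, 2018 and 2292 in the pull-downs.

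Genes of the ribosome itself were depleted where they were called. Of 78 cytosolic ribosomal protein genes, 24 were depleted and none was enriched, 54 were not called, the median log2 fold change was -0.98, and in 59 every pull-down was below every input. Rps15, of the small subunit, was at 111, 86.6 and 86.3 in the inputs and at 24.7, 27.2 and 25.9 in the pull-downs (-1.87, SE 0.20; edgeR adjusted p = 9.61e-05). Rpl41, of the large subunit, was at 146, 99.8 and 110.3 and 33.0, 47.0 and 40.1 (-1.57, SE 0.21; edgeR adjusted p = 0.000442). In both genes the groups were well separated and the pull-downs close to each other. Rpl4, the highest by average FPKM, had -0.57 (SE 0.17; edgeR adjusted p = 0.0379). Ribosomal protein genes have many near-identical pseudogene copies, and since only uniquely mapped reads were counted, their levels are uncertain.

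Fewer genes of the rest of the translation machinery were called. None of 54 initiation factor genes was enriched and 3 were depleted (5.56% against 5.83% of all genes), with a median of -0.20. Of the 3, those other than Pabpc1 lost the call in several alternative analyses. Pabpc1, the poly(A)-binding protein, was at 784, 841 and 1029.7 in the inputs and at 349.9, 466 and 382 in the pull-downs (-1.148, SE 0.16; edgeR adjusted p = 0.00066). Eef1a1, an elongation factor, was at 551, 447 and 430.0 in the inputs and at 266, 185 and 206 in the pull-downs (-1.12, SE 0.18; edgeR adjusted p = 0.00121) and was the 1 gene called of 11 elongation and release factors, while Eef2 had 0.10. Of 76 mitochondrial ribosomal protein genes, 3 were depleted (3.95%, below the 5.83% of all genes), with a median of -0.19. All 3 lost the call without input replicate 1. Of 20 aminoacyl-tRNA synthetases, Iars, Qars and Vars were enriched, with 1.03, 1.07 and 1.27, and each lost the call in at least 1 alternative analysis, Iars and Qars in 4. Of 41 RNA-binding regulators of translation, 3 were enriched, among them Tnrc6b of the microRNA pathway (1.32, SE 0.19), and 2 were depleted. No proteasome subunit of 36 was called by edgeR or DESeq2 (3 lower at an unadjusted p under 0.05), and of 71 chaperones 3 were enriched and 2 depleted.

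Messages of ribosomal proteins and elongation factors are known to begin with a C followed by a run of pyrimidines, the terminal oligopyrimidine (TOP) motif that places them under growth control. The annotated starts of 6 depleted genes with a similar run within 5 bases of the start are shown, picked after their values were seen, and no run begins at the annotated base itself. Each window runs from 15 bases before the RefSeq start (GRCm38) onward for 30 bases in transcript direction, and capitals mark a C followed by at least 5 C or T.
Rpl13a (chr7:45128731-45128760, minus strand): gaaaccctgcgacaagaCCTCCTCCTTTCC
Rps9 (chr7:3704026-3704055, plus strand): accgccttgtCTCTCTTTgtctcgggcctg
Rps26 (chr10:128626492-128626521, minus strand): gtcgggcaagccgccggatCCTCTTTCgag
Rpl18 (chr7:45718056-45718085, plus strand): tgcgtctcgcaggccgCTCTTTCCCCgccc
Eef1a1 (chr9:78481710-78481739, minus strand): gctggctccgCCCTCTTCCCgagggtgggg
Gas5 (chr1:161035151-161035180, plus strand): agccgccatctcagCCTTTCggagctgtgc
Gas5 is a noncoding host of small nucleolar RNAs that has such a run as well. Of 58 ribosomal protein genes with a RefSeq promoter, 26 (44.8%) had such a run beginning within 5 bases of the start, searched in transcript direction only, against 1169 of 9157 tested genes (12.8%). Of the 26 ribosomal genes with a run 9 were depleted, and of the 32 without a run 9 were depleted, with medians of -0.91 and -1.03. Among other genes the medians were -0.03 with a run and -0.04 without. No test was run on these values.

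Of 19 long noncoding and nuclear RNAs tested, 5 were depleted and 1, Meg3, was enriched. Gas5 was at 211, 134 and 148 in the inputs and at 30.3, 48.7 and 31.7 in the pull-downs (-2.16, SE 0.24; edgeR adjusted p = 0.000137). Rpph1, the RNA of RNase P, was at 23.3, 13.8 and 19.1 in the inputs and at 0.0558, 0.406 and 0.968 in the pull-downs, where it had 1, 6 and 13 counts, and 73.0% of its exon bases overlap Ccnb1ip1. Meg3 was at 70.1, 69.2 and 75.7 in the inputs and at 192, 135 and 122.9 in the pull-downs (1.07, SE 0.20; edgeR adjusted p = 0.00315) and lost the call without pull-down replicate 1 and with scaling by library size alone. Malat1, a nuclear RNA, was at 1155, 1139 and 1345 in the inputs and at 5020.4, 1305 and 1220.0 in the pull-downs, so pull-down replicate 1 held over 3 times the level of any other library.

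Enriched genes were longer than depleted genes. The median coding length was 2337 bases for enriched genes, 825 for depleted genes and 1389 for all genes. From the shortest to the longest quintile of genes by coding length, the share enriched went from 2.46% to 13.96% and the share depleted from 12.9% to 1.26%, and the median log2 fold change from -0.42 to 0.36. Between classes the order of length and of log2 fold change was not the same throughout. The median coding length was 7395 bases for ankyrins, spectrins and plakins, 2787 for cadherins and 456 for ribosomal proteins. It was 1269 for proprioceptor genes and 1302 for glycolysis genes, both with positive median log2 fold changes, and 5568 for sodium channels, whose median lay near that of all genes and turned its sign with the library left out. Within the shortest quintile, 64 ribosomal protein genes had a median of -1.06 with 22 depleted, against -0.42 for the 2171 other genes with 12.3% depleted. Quintiles by GC content of the transcript differed less, with medians from -0.081 to -0.00079. The part of length in the class values was not tested.

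**Figure D3:**
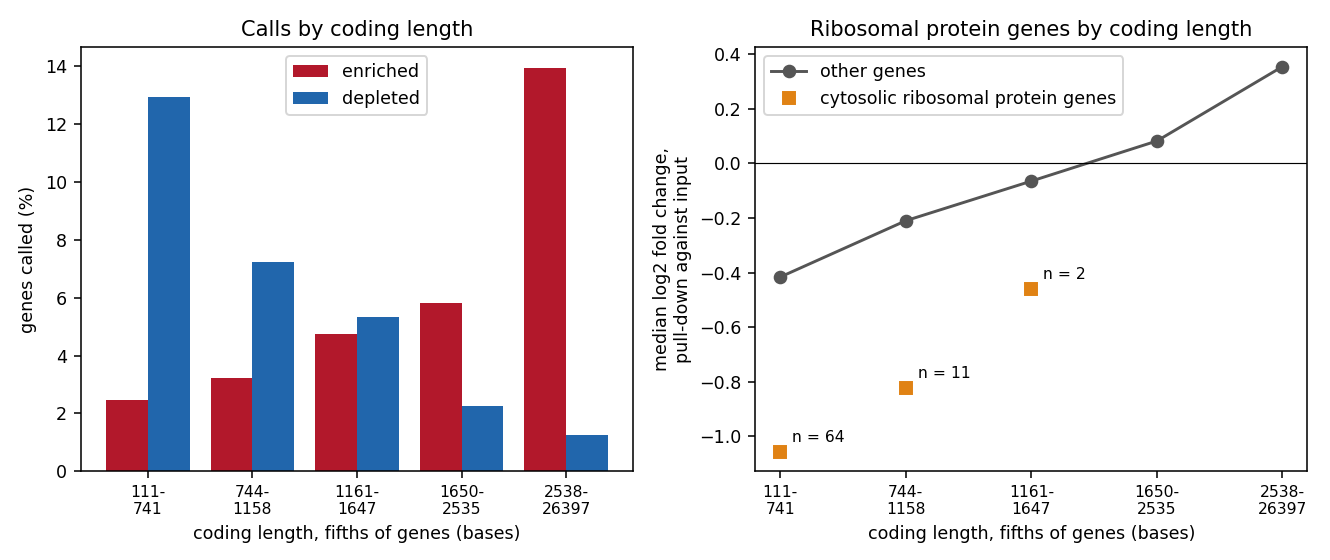
Left, share of genes enriched and depleted (%) in quintiles of genes by coding length (bases); the enriched share was 2.46% in the shortest and 13.96% in the longest quintile. Right, median log2 fold change of cytosolic ribosomal protein genes (squares, with their number) and of all other genes (circles) in the same quintiles; the ribosomal genes lay below the others, at -1.06 against -0.42 in the shortest quintile, and the third quintile holds only 2 of them.

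Markers of other cells were checked in each library. Satellite glia markers had a median log2 fold change of -1.11 (3 depleted of 11), Schwann cell markers -1.05 (Drp2 enriched and Pmp22 depleted of 10), fibroblast markers -0.75 (1 depleted of 8), endothelial markers -0.36 (0 called of 7) and macrophage markers 0.53 (0 called of 6). At an unadjusted p under 0.05 edgeR gave 0 endothelial markers and 1 macrophage marker, and DESeq2 called none. Both tested mural cell markers, Rgs5 and Tagln, were depleted, and Tagln lost the call in 7 alternative analyses. Of the exon bases of Tagln, 67.9% overlap Pcsk7 or the predicted gene Gm48529. The summed level of all listed endothelial markers was 104 to 151 normalized counts in the inputs, and 201, 28.4 and 34.1 in the pull-downs. That of mural markers was 74.9 to 91.0 in the inputs, and 76.7, 20.6 and 20.4 in the pull-downs. In both lists pull-down replicate 1 was at or above the lowest input, and the other pull-downs were far below it. Sums of the other lists were led by few genes, Glul and S100b for satellite glia, Pmp22, Ngfr and Scn7a for Schwann cells, Thy1 for fibroblasts and Cd68 for macrophages. Scn7a and Thy1 also stand on the sodium channel and adhesion lists, and the part of neurons in these sums was not tested. Satellite glia markers summed to 1229 to 1260.3 in the inputs and 1015 to 1262 in the pull-downs, and Schwann cell markers to 3879 to 5401 and 1779 to 2228. Fibroblast markers summed to 976 to 1200 in the inputs and 914 to 1106 in the pull-downs, and macrophage markers to 65.3 to 133 and 62.7 to 83.6. Fabp7 and Kcnj10 of satellite glia, Mgp of fibroblasts, Emr1 of macrophages, Esam of endothelium and Cspg4 of mural cells were at 0 counts in at least 1 library. Only 1 of the blood and lymphoid markers (Cd79a) and 3 of striated muscle were listed, none above the FPKM limit.

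Cdh5, the cadherin of endothelium, was at 55.1, 34.8 and 38.1 in the inputs and at 48.2, 5.01 and 6.25 in the pull-downs. Sparc, a matrix protein of glia and stroma, was at 388, 373 and 303 in the inputs and at 351, 49.1 and 40.3 in the pull-downs. In both genes pull-down replicate 1 lay within the range of the inputs. Pmp22, a myelin protein, was at 3848, 2483 and 2399.7 in the inputs and at 1159, 707 and 795 in the pull-downs and was depleted (-1.71, SE 0.23; edgeR adjusted p = 0.000561). Without pull-down replicate 1, 7 of 11 satellite glia, 7 of 10 Schwann cell, 6 of 8 fibroblast and 4 of 7 endothelial markers were depleted. Depleted genes in all numbered 1060 instead of 672 of the 11526 tested. Without it, depleted genes also numbered 7 instead of 3 of 25 TRP, Piezo, P2X, ASIC and HCN channels. They numbered 5 instead of 1 of 43 axon guidance genes and 11 instead of 2 of 26 collagens, laminins and integrins. In the remaining classes they numbered 3 instead of 0 of 50 cadherins, 4 instead of 1 of 47 Rab genes and 3 instead of 1 of 12 sodium channels. For cadherins and Rab genes the depleted share without that library was below that of all genes. Enriched microtubule-associated protein genes numbered 7 instead of 4 without that library. The intermediate filament list, which also holds Nes and Vim, had 2 depleted members instead of 0. The part of these cells in the class values was not tested.

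**Figure D4:**
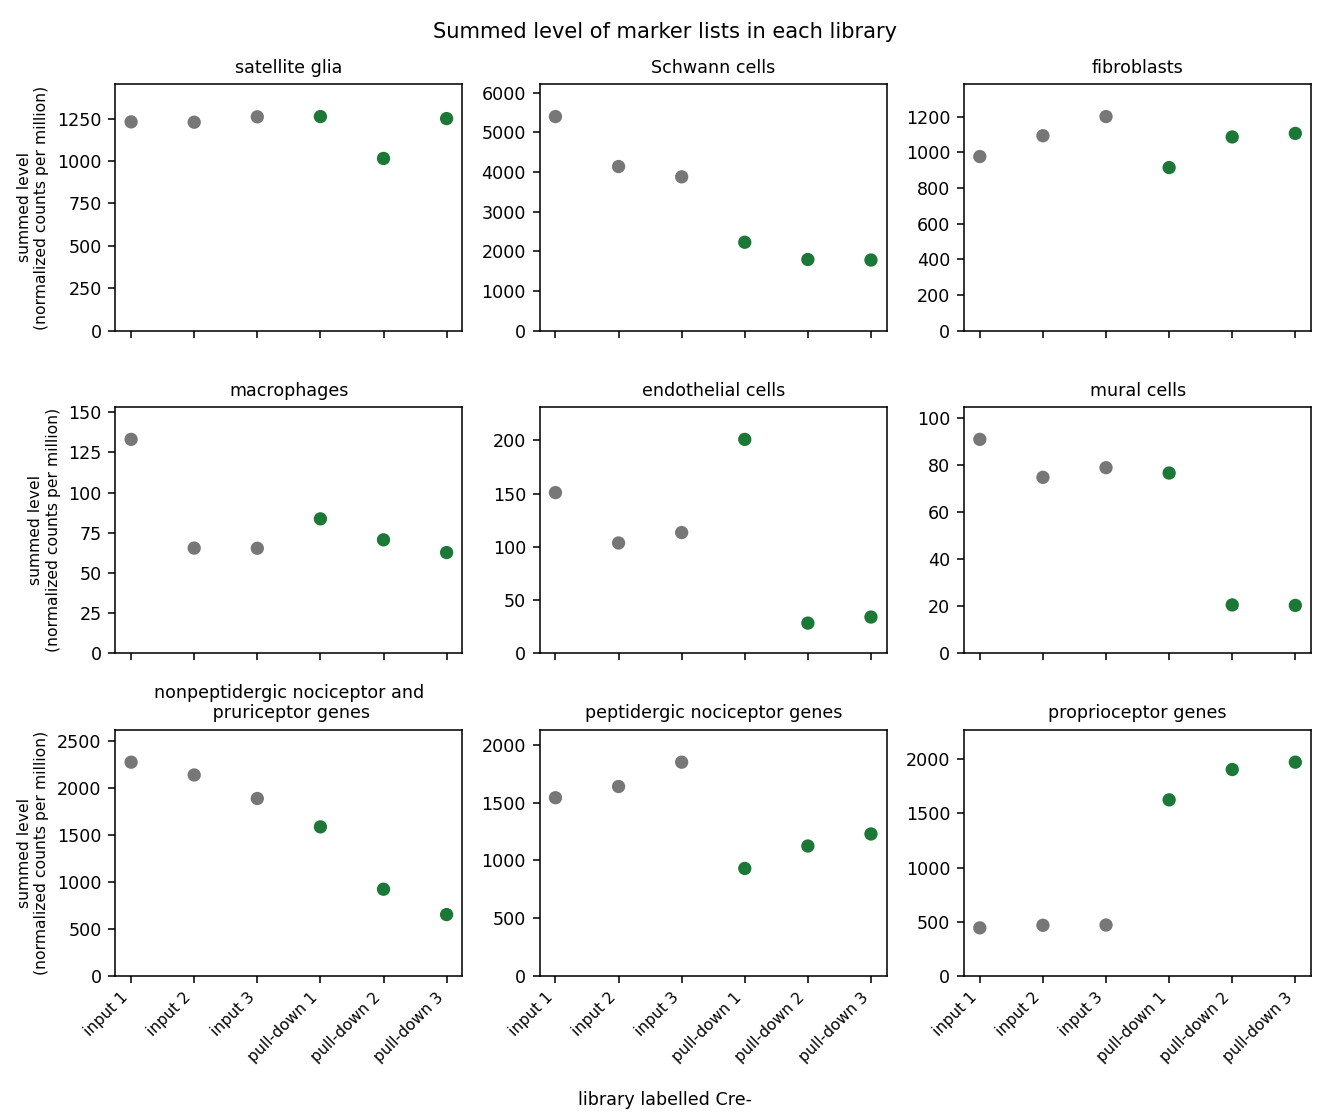
Summed level of the listed markers of 6 other cell types and of 3 neuronal lists in each library (normalized counts), with inputs in gray and pull-downs in green; each axis starts at 0. Pull-down replicate 1 was at 201 for endothelial and 76.7 for mural markers, against 20.4 to 34.1 in the other pull-downs, while all 3 pull-downs lay above the inputs for proprioceptor genes.

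The enrichment in the libraries labelled Cre- was compared with that in the libraries labelled Cre+ by fitting the 12 libraries together, over 8830 genes above the FPKM limit in both tables. The pull-down to input ratio was higher in Cre- for 185 genes (2.10%) and lower for 228 (2.58%), by the interaction term of edgeR at the same limits. Energy metabolism held many of the former. Of 68 oxidative phosphorylation genes, 12 had a higher ratio in Cre-, with class medians of 0.01 in Cre- and -1.68 in Cre+. Of 16 glycolysis genes 7 did (0.42 and -1.08), and of 20 TCA cycle genes 6 did (0.41 and -0.77), and none of these 3 classes had a gene with a lower ratio. Aldoc was at 88.3, 53.7 and 41.1 in the Cre+ inputs and at 25.03, 41.5 and 17.8 in the Cre+ pull-downs, so that its direction there was opposite. The log2 ratio differed by 3.42 (SE 0.51; edgeR adjusted p = 0.00734), and that of Eno2, Pkm and Mdh1 by 2.11, 2.22 and 2.55. Energy metabolism was not alone in this direction. Of 33 proteasome genes 3 had a higher ratio in Cre- and 0 a lower one (medians -0.14 and -1.16). Of 48 mitochondrial ribosomal protein genes 1 had a higher ratio and 0 a lower one (-0.15 and -1.15). Median coding length was 429 bases for oxidative phosphorylation and 1302 for glycolysis genes, and the part of length in these differences was not tested.

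Of 9 proprioceptor genes in both tables, Spp1 and Etv1 had a higher ratio in Cre- and none a lower one, with medians of 2.55 in Cre- and 1.26 in Cre+. Spp1 was at 128, 103 and 62.0 in the Cre+ inputs and at 55.2, 34.1 and 63.9 in the Cre+ pull-downs, and its log2 ratio differed by 3.59 (SE 0.47; edgeR adjusted p = 0.00253). Etv1 was at 61.4, 61.1 and 45.4 in the Cre+ inputs and at 89.9, 53.0 and 58.0 in the Cre+ pull-downs, with a difference of 2.40 (SE 0.42; edgeR adjusted p = 0.0155). Ntrk3 and Runx3 had log2 fold changes of 2.20 and 1.57 in Cre+, and their differences of -0.17 and 1.92 did not pass the test (edgeR adjusted p = 0.806 and 0.304). Runx3 had overlapping groups in Cre+, at 4.43, 2.49 and 5.71 in the inputs and at 23.5, 2.20 and 11.7 in the pull-downs. Of 10 peptidergic genes 1, Adcyap1, and of 11 nonpeptidergic genes 1, Runx1, differed, and these calls were lost in 6 and 3 of 15 alternative analyses.

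Ankyrins, spectrins and plakins and potassium channels held more genes with a lower than with a higher ratio in Cre-. Ankyrins, spectrins and plakins had a median of 1.01 in Cre- and 2.47 in Cre+, and 4 of 13 had a lower ratio in Cre- and none a higher one, among them Ank2 (difference -1.76, SE 0.41; edgeR adjusted p = 0.0552), which lost the call in 4 of 15 alternative analyses. Of 43 potassium channel genes 5 had a lower ratio in Cre- and 1 a higher one, with medians of -0.13 and 0.72. Cadherins and protocadherins held 2 genes with a higher and 2 with a lower ratio, and the immunoglobulin adhesion class and collagens, laminins and integrins held 1 each way. None of 54 cytosolic ribosomal protein genes differed (1 at an unadjusted p under 0.05), and their medians were negative under both labels, at -1.04 in Cre- and -1.50 in Cre+. The counts of differing genes depended on single libraries. Leaving out any library except Cre- pull-down replicate 1 moved them by over 1.5 times. They fell to 31 and 15 without Cre- input replicate 2 and rose to 693 and 712 without Cre+ pull-down replicate 2, and scaling by library size alone gave 282 and 75.

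**Figure D5:**
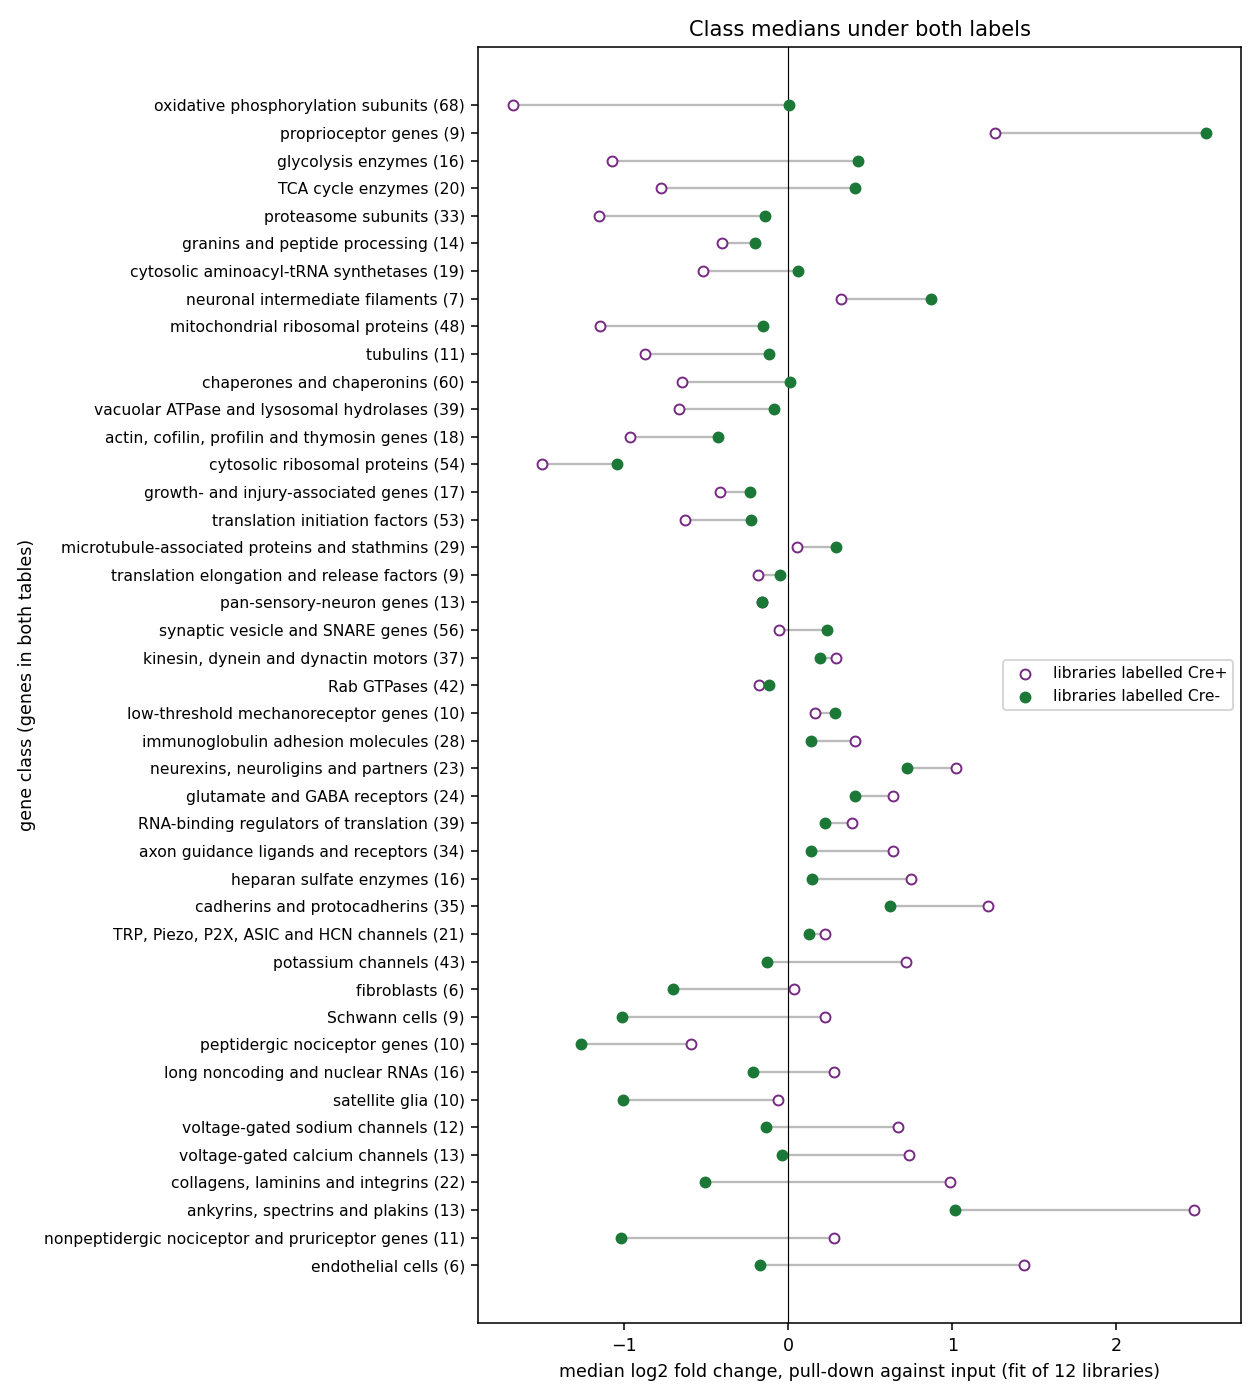
Median log2 fold change of pull-down against input of each class with at least 5 genes in both tables, in the libraries labelled Cre- (filled) and Cre+ (open), from a fit of all 12 libraries; classes are ordered by the median difference of their genes. Oxidative phosphorylation genes were at 0.01 in Cre- and -1.68 in Cre+, and ankyrins, spectrins and plakins at 1.01 and 2.47.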

How the data were processed

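RNA of pull-down and input libraries was sequenced from pools of 5 mice, and 6 libraries labelled Cre- and 6 labelled Cre+ were grouped by the genotype and RNA fraction in their labels. The authors aligned reads to mm10 with STAR at default settings and counted uniquely mapped fragments per refSeq gene with HTSeq, as the deposited whole-number counts. The deposited average FPKM is the authors' mean over the 6 libraries of a table. The submitters' processing notes name CASAVA 1.8.2 and edgeR. Strand use in counting is not given in the sources used here, so reads of overlapping genes cannot be told apart. The labels name a Nugen Ovation Ultra Low Input and Kapa Hyper kit, whereas the study's methods name Ribo-Zero Gold and Ovation V2. The methods also give a younger age range than the labels. Columns of the authors' fold changes and p-values, and 18 further columns of values per sample, were not used.

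Genes with an average FPKM above 1 were tested with edgeR 4.0.16 in R 4.3.3 (TMM scaling, quasi-likelihood fit with the robust option, the 3 pull-downs against the 3 inputs, no covariate), with Benjamini-Hochberg adjustment over all genes tested and limits of 0.1 and 2-fold. Levels are counts per 1000000 on the tested genes after TMM scaling. The comparison with Cre+ used the interaction term of a fit of all 12 libraries. Counts summed to 9403767 to 18633365 per library, which sets counting error only. Rn45s, a ribosomal RNA gene, took 5.70 to 6.59% of the input and 3.79 to 4.38% of the pull-down counts. Classes and marker lists were defined by gene symbol, and members and lists were chosen with earlier results of these data known. Genes named with values were, in each class, up to 3 called members in each direction with the smallest adjusted p and no overlap of the groups, and the member with the highest average level. All members of the subtype lists and of the NALCN complex, Runx3 and Rpl22 were added, and other names were chosen after their values were seen. Lengths and starts came from GENCODE M21 and RefSeq (GRCm38), with 99.6% of the tested genes matched to a RefSeq entry. Alternatives were DESeq2 1.42.0, edgeR's exact test, scaling by library size or upper quartile, no filter, a minimum of 10 counts in 3 libraries, a replicate block, other thresholds and leaving out each library. The fits were tested on simulated data. Several genes among those the rule names are not reported here.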

Additional observations from a re-analysis of the deposited data

Results flagged for a closer look

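The results here had a pull-down to input ratio that differed between the libraries labelled Cre- and Cre+, by the interaction term of edgeR on all 12 libraries at an adjusted p under 0.1 and a 2-fold difference. In all, 185 genes had a higher and 228 a lower ratio in Cre-, and the genes named here are those of the report that passed. Differences are log2 ratios in Cre- minus those in Cre+.

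Genes of energy metabolism were higher in Cre-, with differences of 3.42 for Aldoc, 1.61 for Aldoa, 2.11 for Eno2, 2.22 for Pkm, 3.30 for Ldhb, 2.55 for Mdh1 and 1.47 for Atp5b. Proprioceptor genes were higher with 3.59 for Spp1 and 2.40 for Etv1. Of the named vesicle and peptide genes, Snap25 had 1.75, Vamp1 1.58, Chgb 2.40 and Adcyap1 1.94, while Syt6 had -1.99. Of 56 synaptic vesicle and SNARE genes in both tables, 6 had a higher and 3 a lower ratio in Cre-. Among 14 granins and peptide-processing genes, 2 had a higher ratio and none a lower one. Of the named adhesion genes, Mcam had 1.84, Clstn2 1.27 and Itgb1 1.22, while the classes they belong to also held genes with a lower ratio. Other genes with a higher ratio in Cre- were Kif21b (3.24), Lancl3 (2.82), Uchl1 (1.95), S100b (1.64) and Unc80 (1.18).

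Of the named channel and channel-associated genes that differed, those other than Unc80 had a lower ratio in Cre-, with -1.64 for Kcnip3, -1.19 for Kcnip4, -1.59 for Scn9a and -1.27 for Pirt. Others with a lower ratio were Meg3 (-2.77), Dnase1l3 (-1.78), Ank2 (-1.76), Cd24a (-1.57), Runx1 (-1.55), Ngfr (-1.42), Pabpc1 (-1.38) and Rbfox3 (-1.02).

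The difference passed the test in each of 15 alternative analyses for Aldoa, Aldoc, Chgb, Eno2, Etv1, Lancl3, Ldhb, Mcam, Mdh1, Ngfr, Pkm, Snap25, Spp1, Syt6 and Uchl1. It was lost in 12 of them for Kcnip3, 10 for Pirt, 9 for Clstn2 and Rbfox3, 8 for Cd24a, Itgb1, Kcnip4, Meg3, Pabpc1 and Unc80, 7 for Vamp1, 6 for Adcyap1, 4 for Ank2, 3 for Atp5b, Kif21b, Runx1, S100b and Scn9a, and 1 for Dnase1l3. In Snap25 the libraries labelled Cre- had a log2 fold change of 1.148 and those labelled Cre+ of -0.61, in Ngfr -1.02 and 0.40, and in Syt6 -1.50 and 0.49.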

How the results depend on the processing

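The counts of 693 enriched and 672 depleted genes became 763 and 718 with DESeq2, 649 and 714 with upper-quartile scaling, 739 and 673 without a filter, 734 and 676 with at least 10 counts in 3 libraries and 749 and 800 with edgeR's exact test, and stayed within 1.5 times at an adjusted p under 0.05. They moved by over 1.5 times with scaling by library size alone for both directions (429 and 1238) and with no fold limit (1502 and 1284). Leaving out 1 library gave 575 to 817 enriched and 525 to 1060 depleted genes, and only pull-down replicate 1 moved the depleted count by over 1.5 times. Pull-downs and inputs of the same number correlated in their deviations from the group means at 0.0674, 0.0284 and 0.124. An input is taken from the lysate of a pull-down, but the labels do not say that equal numbers mark the same lysate. With the replicate block 704 and 792 genes were called, 3 named genes lost and 11 gained the call, and the median of growth- and injury-associated genes was -0.32 instead of -0.49 over that of all genes. Of 232 named genes 150 were called, 105 of them under each of the 13 alternatives, and none changed direction while called. Besides the losses given with the genes, Gabrb2 and Kif1b lost the call with scaling by library size alone, Gfra1 and Tac1 without pull-down replicate 3 and Sema3c without pull-down replicate 2.

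Class medians below are differences from the median of all genes. Without a filter, and with at least 10 counts in 3 libraries, cadherins and protocadherins had 0.58 and 0.56, microtubule-associated proteins 0.14 in each, synaptic vesicle genes -0.015 and -0.017, Rab GTPases -0.098 and -0.099, proprioceptor genes 2.49 in each and mural cell markers -0.50 in each, over more genes than reported. Axon guidance genes had 0.23 with the count minimum and granins 0.032 without a filter. When 1 library was left out, the medians of the following classes moved by more than the spread of the pull-downs. The range was -0.22 to 0.15 for voltage-gated calcium channels, -0.0339 to 0.25 for TRP, Piezo, P2X, ASIC and HCN channels, 0.87 to 1.05 for NALCN leak channel complex, 0.0922 to 0.43 for immunoglobulin adhesion molecules, 0.0576 to 0.22 for axon guidance ligands and receptors and 0.0446 to 0.27 for heparan sulfate enzymes. It was 0.44 to 0.49 for glycolysis enzymes, 0.39 to 0.52 for TCA cycle enzymes, -0.25 to -0.15 for mitochondrial ribosomal proteins, -0.066 to 0.13 for translation elongation and release factors, 0.13 to 0.32 for RNA-binding regulators of translation and 0.0194 to 0.10 for chaperones and chaperonins. It was 0.25 to 0.40 for microtubule-associated proteins and stathmins, 0.20 to 0.36 for kinesin, dynein and dynactin motors, 0.93 to 1.28 for ankyrins, spectrins and plakins, -0.80 to -0.27 for growth- and injury-associated genes, 0.0398 to 0.28 for synaptic vesicle and SNARE genes and -0.24 to -0.000624 for granins and peptide processing. It was -0.12 to -0.0368 for Rab GTPases, 2.34 to 2.70 for proprioceptor genes, -1.83 to -1.11 for peptidergic nociceptor genes, -0.19 to -0.0548 for pan-sensory-neuron genes, -1.15 to -0.27 for long noncoding and nuclear RNAs and -2.13 to -0.59 for satellite glia. It was -1.74 to -0.0282 for endothelial cells. Others moved less than that spread but turned their sign or ranged over 1.5 times, from -0.42 to -0.19 for actin, cofilin, profilin and thymosin genes, -0.80 to 0.047 for collagens, laminins and integrins, 0.0646 to 0.21 for cytosolic aminoacyl-tRNA synthetases, -1.57 to -0.30 for fibroblasts, 0.39 to 0.62 for glutamate and GABA receptors and 0.17 to 0.83 for macrophages, and from -1.97 to -1.12 for mural cells, -1.59 to -0.64 for nonpeptidergic nociceptor and pruriceptor genes, -0.0313 to 0.17 for oxidative phosphorylation subunits, -0.35 to 0.21 for potassium channels, -0.18 to -0.0823 for proteasome subunits, -1.44 to -0.69 for Schwann cells, -0.23 to 0.13 for tubulins, -0.0945 to -0.021 for vacuolar ATPase and lysosomal hydrolases and -0.19 to 0.0847 for voltage-gated sodium channels. The cause was not tested.

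Genes that differed between the labels numbered 420 higher and 615 lower in Cre- with DESeq2, and 282 and 75 with scaling by library size alone, instead of 185 and 228. Leaving out 1 of the 12 libraries gave 31 to 693 and 15 to 712. Groups of 3 libraries, with 1 pull-down that stands apart, limit the precision of every class.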

Other observations

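Striated muscle was on the marker lists, and none of the 3 listed genes passed the FPKM limit. Ttn, which encodes the giant sarcomere protein titin, had an average FPKM of 0.96 and was at 21.7, 25.4 and 21.3 normalized counts in the inputs and at 249.8, 161.6 and 75.4 in the pull-downs labelled Cre-. Every pull-down was above every input, with a log2 fold change of 2.82 in the fit without a filter (edgeR adjusted p = 0.000696). The myosin gene Myh4 was below 4 normalized counts in every library, and Mylpf, a myosin light chain, below 1. Abra, an actin-binding protein of muscle, is not on that list. It had an average FPKM of 1.13 and passed the limit through its pull-downs, since it had no count in any input and was at 6.03, 1.83 and 4.99 normalized counts in the pull-downs. Rtl1, a retrotransposon-derived imprinted gene, was at 2.65, 1.16 and 0.303 in the inputs and at 58.9, 0.135 and 0.744 in the pull-downs, so that pull-down replicate 1 alone was high.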
